A study of Mus musculus with 12 samples.

Results

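SR proteins and hnRNPs were followed as 39 genes. They were chosen by their symbols, with earlier results of these data known. These were the 11 genes named Srsf with a number, 6 SR-related genes (Tra2a, Tra2b, Srrm1, Srrm2, Srrm4 and Son), 20 genes named Hnrnp, and the TIA pair Tia1 and Tial1. The count table held 57132 features, of which 13902 passed the filter on low values (CPM, a count relative to the total of the library, of at least 0.5 in at least 3 libraries) and were tested. The table held 39 features that fit the symbols, and all 39 passed.

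The RNA came from the striatum of mice of 10 months, 6 of them TAAR5-KO, which lack trace amine-associated receptor 5, and 6 TAAR5-WT. All were C57Bl/6 littermates kept under the same conditions. A coronal slice in front of Bregma was taken, its cortex was removed, and the rest was used, so each library mixes the cell types of that piece. Ribosomal RNA was depleted, directional libraries were made, and reads were counted per gene. The columns of the table carry numbers from NK1 to NK12 that are not tied to an animal, or to a sex although the study used both, so each was used as a replicate of its label. In such bulk tissue, fewer cells of a type and less RNA per cell cannot be told apart.

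The targeted gene had few counts under either label, and they did not bear out the labels. Taar5 had between 1 and 6 counts in each of the libraries labelled TAAR5-KO (NK1 to NK6). Of the libraries labelled TAAR5-WT (NK7 to NK12), NK11 had 2 counts and NK8 had 1, and the remaining 4 had 0, which allows up to 3. Each direction given here therefore follows the labels, which these few and overlapping counts do not bear out.

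SR proteins carry RNA-binding domains and a tail rich in arginine and serine, bind mostly to enhancers within exons, and help the spliceosome to recognize splice sites. hnRNPs coat nascent transcripts and often act as their counterweight at silencer elements, with further roles in RNA export, stability and local translation in neurons. TIA proteins bind U-rich sequences next to 5′ splice sites and also take part in stress granules. Many genes of these families control their own levels through poison exons and retained introns, which send transcripts to decay or keep them in the nucleus.

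Total counts ran from 11269915 to 34824450 per library. Ribosomal RNA still held 64.3% to 88.1% of them, which left 1819907 to 6399188 other counts per library. The 39 genes held 0.225% to 0.521% of these. Levels were scaled with TMM, the trimmed mean of M-values of edgeR, whose factors ran from 0.375 to 2.46. Scaling by library size alone moved the median of the log2 fold changes over all 13902 features from −0.0059 to −0.49, so every change below is relative to the TMM scale. The pairs of libraries within a label all differed beyond counting noise, with a chi-square of 8.11 to 376 per degree of freedom over 30 pairs.

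The comparison asked whether splicing regulators differed in level between the labels. The libraries labelled TAAR5-KO had a higher fitted level of 32 of the 39 genes on the TMM scale, whereas 0 of 39 were higher when library size alone was the scale. The median log2 fold change was 0.16 over the 39 genes and −0.0059 over all features tested, of which 48.9% were higher. On the scale of library size alone, it was −0.35 over the 39 genes and −0.49 over all features, of which 4.72% were higher. The median SE of the 39 genes was 0.54 on that scale and 0.10 on the TMM scale. Library size here means total counts, of which ribosomal RNA held 64.3% to 88.1%. Tia1, Tial1, Srsf11 and Tra2a rose at an adjusted p under 0.1 by edgeR's likelihood ratio test with Benjamini–Hochberg adjustment, by 1.33 to 1.42-fold, and no member fell. These 4 of 39 make 10.3%, beside 0.957% of all features called higher and 0.691% called lower by the same test. The median SE over all features was 0.17 on the TMM scale, wider than the 0.10 of the 39 genes. An equal change is called more readily at a smaller SE, so shares set beside all features, here and below, are not a like comparison. The quasi-likelihood test of edgeR called 3 of them (Tia1, Tial1 and Srsf11), beside 0.309% of all features called higher. DESeq2 called 5, the 4 and Hnrnph1, beside 0.734% of all features called higher. An unadjusted p under 0.05 with a positive change was reached by 10 of the 39 genes, or 25.6%, beside 6.39% of all features, and by 0 with a negative change.

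**Figure D1:**
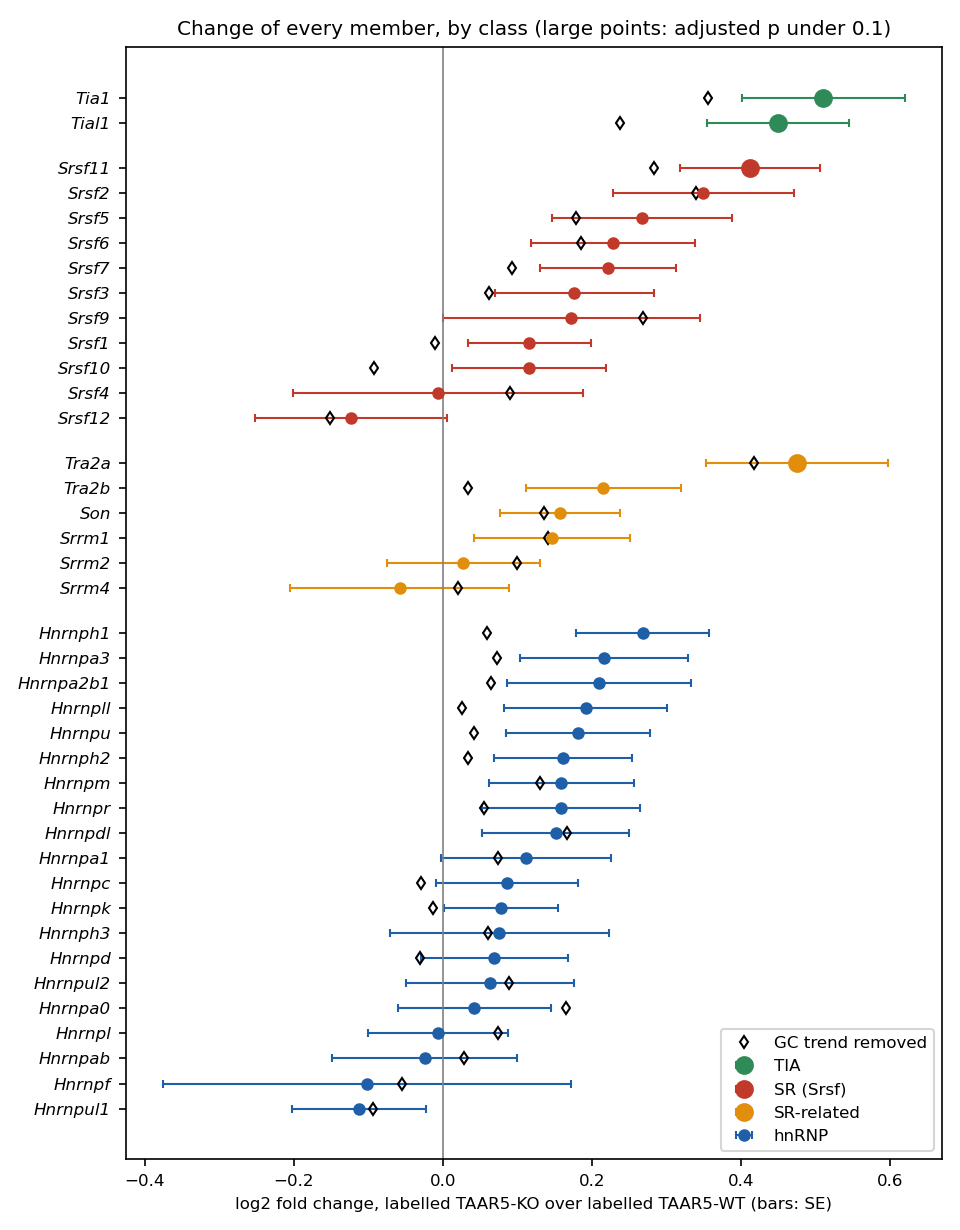
Log2 fold change of each of the 39 genes between libraries labelled TAAR5-KO and TAAR5-WT on the TMM scale (n = 6 each), by class, with bars for the standard error. Large points mark the 4 genes past an adjusted p of 0.1, and open diamonds give the value after each library's trend on GC content was removed. On the TMM scale 32 of the 39 points lie above 0. If library size alone were the scale, 0 of 39 would, beside 4.72% of all features tested.

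The TIA pair had the highest median log2 fold change of the 4 classes on the TMM scale, 0.48 (−0.038 by library size alone), and Tra2a lay between Tia1 and Tial1. Tia1 (ENSMUSG00000071337.12, GRCm39 chromosome 6, 86381201 to 86410387, plus strand) encodes T-cell intracellular antigen 1, which recruits the U1 snRNP to weak 5′ splice sites. Its level ran from 11.6 to 16.5 CPM (median 13.4) in libraries labelled TAAR5-KO and from 8.43 to 11.3 CPM (median 9.12) in those labelled TAAR5-WT. Every library labelled TAAR5-KO was thus above every library labelled TAAR5-WT. The mean was 13.7 ± 1.84 CPM against 9.57 ± 1.21 CPM (SD, n = 6 each). This is a log2 fold change of 0.51 with an SE of 0.11 (adjusted p = 0.00219 by the likelihood ratio test in edgeR). The quasi-likelihood test gave an adjusted p of 0.0521.

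Tial1 (ENSMUSG00000030846.17, chromosome 7, 128041501 to 128063441, minus strand) encodes the close relative TIAR, which binds the same kind of U-rich sites. Its level ran from 12.7 to 16.4 CPM (median 13.3) in libraries labelled TAAR5-KO and from 8.75 to 10.9 CPM (median 10.2) in those labelled TAAR5-WT. Here too the labels did not overlap, and the library NK1 stood apart at 16.4 CPM. The mean was 13.7 ± 1.38 CPM against 9.94 ± 0.873 CPM (SD, n = 6 each), or 0.45 on the log2 scale with an SE of 0.095 (adjusted p = 0.00169, and 0.0351 by the quasi-likelihood test in edgeR). Both genes remained called when any 1 library was left out. They were the only 2 of the 39 genes with no overlap of this kind, or 5.13%, beside 0.626% of all features.

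Among the SR genes, 9 of 11 had a positive log2 fold change on the TMM scale (0 of 11 by library size alone), with a median of 0.18, and 1 passed the test. Srsf11 (ENSMUSG00000055436.19, chromosome 3, 157716110 to 157742276, minus strand) encodes SRp54, a regulator of neuronal microexons. Its level ran from 15.2 to 18.1 CPM (median 17.0) in libraries labelled TAAR5-KO and from 10.9 to 15.2 CPM (median 12.8) in those labelled TAAR5-WT. In 5 of the 6 libraries labelled TAAR5-KO it was above every library labelled TAAR5-WT, and only the lowest TAAR5-KO library met the highest TAAR5-WT library. The mean was 16.8 ± 1.01 CPM against 12.9 ± 1.63 CPM (SD, n = 6 each). The log2 fold change was 0.41 with an SE of 0.094 (adjusted p = 0.00611, and 0.0636 by the quasi-likelihood test in edgeR), and the call held without any 1 library.

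**Figure D2:**
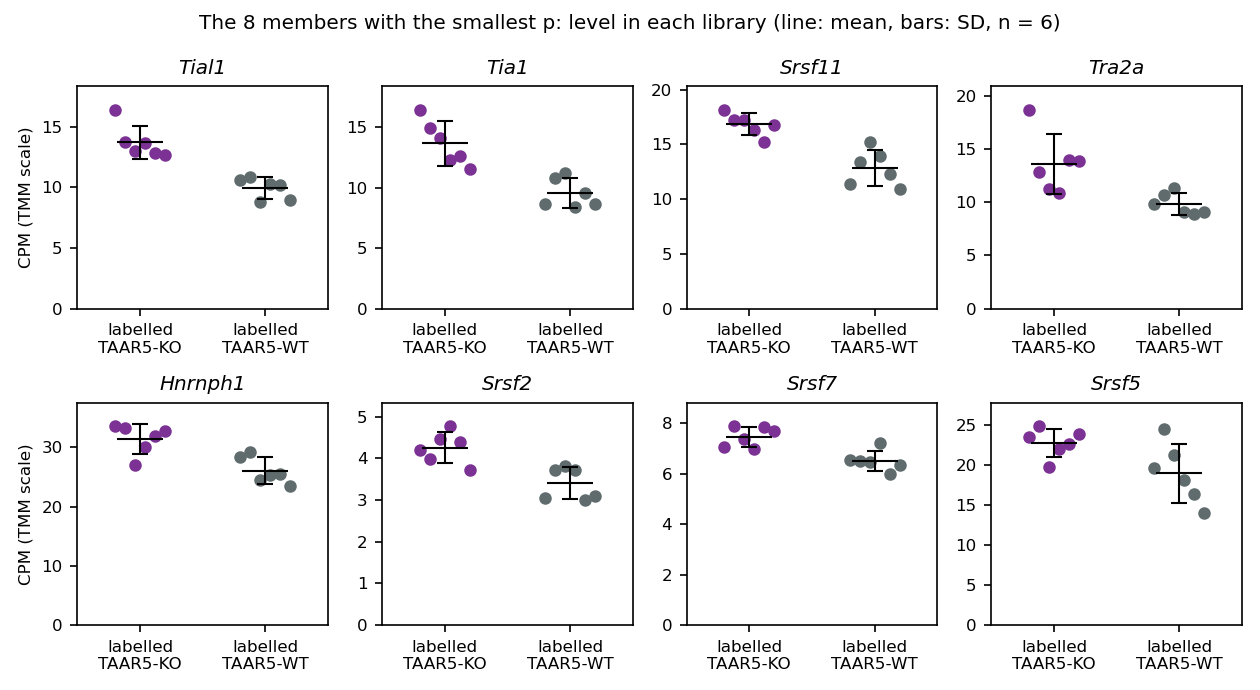
Level in each library, in CPM on the TMM scale, of the 8 genes with the smallest p of the likelihood ratio test, with a line for the mean and bars for the SD (n = 6 per label). The labels do not overlap for Tial1 and Tia1, while in the other 6 genes 1 or more libraries labelled TAAR5-KO lie among those labelled TAAR5-WT.

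The most abundant SR genes per length of exon did not pass the test. Srsf5 encodes SRp40 and had the highest level, 5.23 RPKM (CPM per kilobase of exon) over the 12 libraries. It ran from 19.7 to 24.8 CPM (median 23.0) in libraries labelled TAAR5-KO and from 14.0 to 24.6 CPM (median 18.8) in those labelled TAAR5-WT. The ranges overlapped, since the highest TAAR5-WT library stood near the top of both, and the log2 fold change was 0.27 with an SE of 0.12 (adjusted p = 0.334 by the likelihood ratio test in edgeR). Leaving out NK8, that library, took Srsf5 past the threshold, with an adjusted p of 0.0850.

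Srsf1 encodes ASF/SF2, a much studied SR protein, and had 3.44 RPKM. It ran from 19.7 to 21.9 CPM (median 20.2) in libraries labelled TAAR5-KO and from 16.8 to 22.4 CPM (median 18.6) in those labelled TAAR5-WT, with a log2 fold change of 0.12 (SE 0.082). The highest level of all 12 libraries was in a TAAR5-WT library. Srsf7, whose protein 9G8 also joins splicing to mRNA export, had 1.97 RPKM. It ran from 7.0 to 7.88 CPM (median 7.55) and from 6.00 to 7.23 CPM (median 6.48), and the log2 fold change was 0.22 with an SE of 0.091 (adjusted p = 0.263 by the likelihood ratio test in edgeR). Here 4 of the 6 libraries labelled TAAR5-KO were above all those labelled TAAR5-WT.

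Of the remaining SR genes, Srsf2 (SC35) had a log2 fold change of 0.35 (SE 0.12), Srsf6 (SRp55) of 0.23 (SE 0.11), Srsf3 (SRp20) of 0.18 (SE 0.11) and Srsf9 (SRp30c) of 0.17 (SE 0.17). For Srsf2, 5 of 6 libraries labelled TAAR5-KO exceeded all those labelled TAAR5-WT, its adjusted p was 0.148, and it reached 0.0959 in the same likelihood ratio test in edgeR without NK6. Srsf10 had 0.12 and Srsf4 −0.0065. The lowest value of the class was that of Srsf12, a relative of Srsf10. It ran from 2.79 to 3.59 CPM (median 3.01) in libraries labelled TAAR5-KO and from 2.98 to 4.21 CPM (median 3.45) in those labelled TAAR5-WT. The ranges overlapped, with a log2 fold change of −0.12 (SE 0.13).

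Of the 6 SR-related genes, 5 had a positive log2 fold change on the TMM scale (0 of 6 by library size alone), with a median of 0.15, and 1 passed the test. Tra2a (ENSMUSG00000029817.12, chromosome 6, 49220858 to 49240967, minus strand) encodes one of the transformer-2 proteins, which bind GAA-rich exonic enhancers. Its level ran from 10.9 to 18.7 CPM (median 13.4) in libraries labelled TAAR5-KO and from 8.91 to 11.4 CPM (median 9.46) in those labelled TAAR5-WT. In 4 of the 6 libraries labelled TAAR5-KO it was above all those labelled TAAR5-WT, and NK1 was highest at 18.7 CPM. The mean was 13.6 ± 2.80 CPM against 9.82 ± 1.02 CPM (SD, n = 6 each). The log2 fold change was 0.48 with an SE of 0.12 (adjusted p = 0.0197 by the likelihood ratio test). The quasi-likelihood test in edgeR gave an adjusted p of 0.103, and the likelihood ratio test 0.101 without NK11, both above the threshold. Without NK1 the log2 fold change of Tra2a was 0.38.

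Its paralogue Tra2b, which binds the same motif, ran from 10.4 to 16.1 CPM (median 13.4) in libraries labelled TAAR5-KO and from 10.9 to 12.7 CPM (median 11.6) in those labelled TAAR5-WT, and the log2 fold change was 0.21 with an SE of 0.10 (adjusted p = 0.384 by the likelihood ratio test in edgeR). It was higher than every library labelled TAAR5-WT in 4 of 6 libraries, while the lowest library of all was labelled TAAR5-KO. Son and Srrm2 encode the large scaffold proteins of nuclear speckles, where splicing factors are stored. Son ran from 54.8 to 62.8 CPM (median 58.3) and from 48.8 to 55.9 CPM (median 52.8), with 5 of 6 libraries labelled TAAR5-KO above all those labelled TAAR5-WT. Its log2 fold change was 0.16 with an SE of 0.080 (adjusted p = 0.421 by the same test in edgeR).

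Srrm2 ran from 53.0 to 72.8 CPM (median 68.0) in libraries labelled TAAR5-KO and from 57.6 to 72.6 CPM (median 63.5) in those labelled TAAR5-WT. Its ranges lay almost on each other, with a log2 fold change of 0.027 (SE 0.10). Srrm1, a coactivator that bridges SR proteins, ran from 14.2 to 18.8 CPM (median 16.0) and from 13.1 to 17.7 CPM (median 14.2), with a log2 fold change of 0.15 (SE 0.10). Srrm4, the neuronal activator of microexons also known as nSR100, had the lowest value of the class. It ran from 2.42 to 4.14 CPM (median 3.78) and from 2.73 to 4.36 CPM (median 3.65), with a log2 fold change of −0.058 (SE 0.15). The ranges of both genes overlapped.

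Of the 20 hnRNP genes, 16 had a positive log2 fold change on the TMM scale (0 of 20 by library size alone), and the median was 0.099. Without NK3 this median was 0.15, beside 0.15 for the SR genes without the same library. None was called by either test in edgeR, 1 had an unadjusted p under 0.05 by the likelihood ratio test, and DESeq2 called 1. That gene was Hnrnph1, whose protein binds runs of G. It ran from 27.0 to 33.5 CPM (median 32.3) in libraries labelled TAAR5-KO and from 23.5 to 29.2 CPM (median 25.4) in those labelled TAAR5-WT. In 5 of the 6 libraries labelled TAAR5-KO it was above all those labelled TAAR5-WT. The log2 fold change was 0.27 (SE 0.089), with an adjusted p of 0.126 by the likelihood ratio test, 0.189 by the quasi-likelihood test in edgeR and 0.0546 by DESeq2. The likelihood ratio test called it without NK3 or without NK8.

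The 3 most abundant hnRNP genes per length were the core particle proteins Hnrnpa1 (7.17 RPKM), Hnrnpa3 (6.81 RPKM) and Hnrnpa2b1 (6.26 RPKM). These means over the 12 libraries were also the highest of all 39 genes. Hnrnpc followed at 5.99 RPKM and was above Hnrnpa2b1 per length in some libraries. Hnrnpa1 ran from 19.9 to 25.6 CPM (median 24.7) in libraries labelled TAAR5-KO and from 17.8 to 27.2 CPM (median 20.2) in those labelled TAAR5-WT, with a log2 fold change of 0.11 (SE 0.11). Hnrnpa3 ran from 33.7 to 47.4 CPM (median 39.7) and from 26.9 to 40.1 CPM (median 32.5), with a log2 fold change of 0.22 (SE 0.11). Hnrnpa2b1, which carries mRNAs into dendrites, ran from 33.4 to 50.2 CPM (median 47.0) and from 32.8 to 49.5 CPM (median 36.8), with a log2 fold change of 0.21 (SE 0.12). In all 3 the ranges overlapped. Within each library, Hnrnpa1 was above Hnrnpa2b1 per length, while the place of Hnrnpa3 among the 3 genes changed between libraries.

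Among the others, Hnrnpu, a scaffold of nuclear RNA and chromatin, had a log2 fold change of 0.18 (SE 0.097), Hnrnpll of 0.19, Hnrnph2 of 0.16, Hnrnpm of 0.16, Hnrnpr of 0.16 and Hnrnpdl of 0.15. Values nearer to 0 were found for Hnrnpc (0.086), Hnrnpk (0.078), Hnrnph3 (0.075), Hnrnpd (0.069), Hnrnpul2 (0.064) and Hnrnpa0 (0.042). Hnrnpl (−0.0063), Hnrnpab (−0.024) and Hnrnpf (−0.10) were on the other side. The lowest was Hnrnpul1, a relative of Hnrnpu, which ran from 14.0 to 16.2 CPM (median 15.2) in libraries labelled TAAR5-KO and from 13.6 to 18.4 CPM (median 16.7) in those labelled TAAR5-WT. Its ranges overlapped, with a log2 fold change of −0.11 (SE 0.090).

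**Figure D3:**
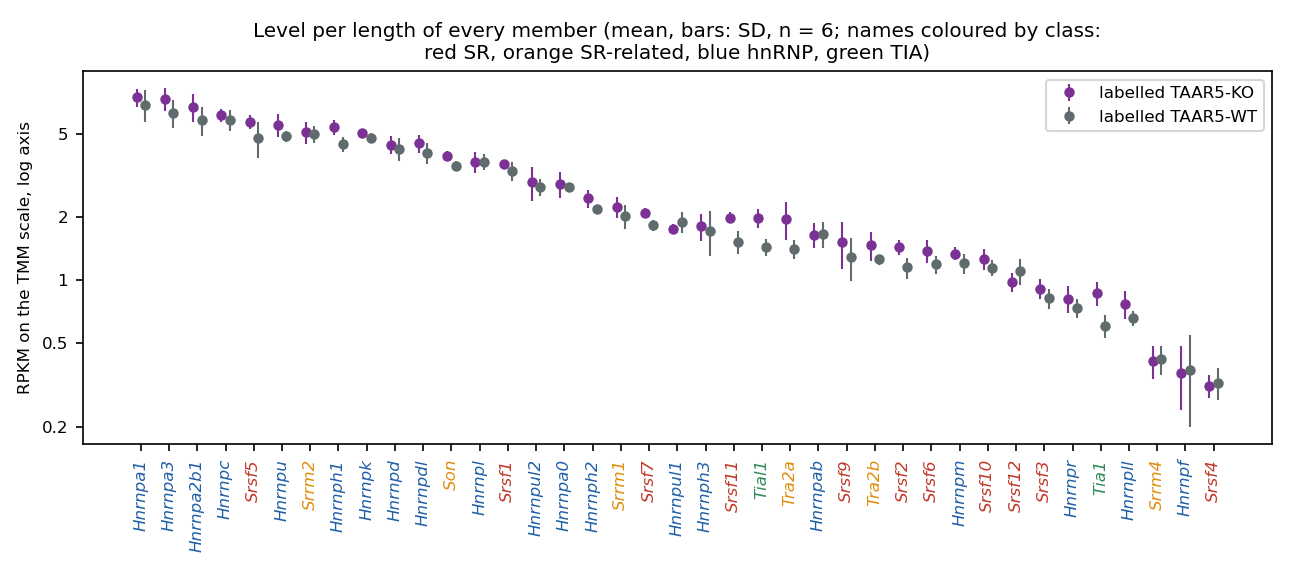
Level per length of exon (RPKM on the TMM scale, log axis) of the 39 genes in libraries of each label, as mean and SD (n = 6), ordered by the mean over 12 libraries. Hnrnpa1, Hnrnpa3 and Hnrnpa2b1 stand highest, at 7.17, 6.81 and 6.26 RPKM, and Srsf4 lowest, at 0.318 RPKM.

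Per length, the 39 genes spanned 0.318 to 7.17 RPKM, from the 33.4th to the 96.8th percentile of the features tested. The median level was 3.27 RPKM for hnRNP genes, 1.30 RPKM for SR genes, 1.91 RPKM for SR-related genes and 1.23 RPKM for the TIA pair. Of the called genes, Srsf11 at 1.76 RPKM, Tial1 at 1.71 RPKM and Tra2a at 1.69 RPKM were at ranks 22, 23 and 24 of 39 by level, and Tia1, at 0.738 RPKM, was at rank 35. Counts of a member in a library ran from 3 (Hnrnpf) to 2890 (Srrm2), and the 4 called genes had at least 70 counts in every library.

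The SR and hnRNP classes were then set against each other within each library, which does not depend on its scaling. The mean log2 CPM of the 11 SR genes was below that of the 20 hnRNP genes by 1.29 ± 0.106 in libraries labelled TAAR5-KO and by 1.34 ± 0.121 in those labelled TAAR5-WT (SD, n = 6 each). The difference of 0.057 is under either SD and the ranges overlapped, with 1 library labelled TAAR5-KO above all those labelled TAAR5-WT. On the TMM scale, the mean of the SR genes was higher in all 6 libraries labelled TAAR5-KO than in any labelled TAAR5-WT. The mean of the hnRNP genes was so in 3 of 6, that of the SR-related genes in 4 of 6, with another below all TAAR5-WT libraries, and that of the TIA pair in 6 of 6. By library size alone, the class medians were −0.28 (SR), −0.33 (SR-related), −0.37 (hnRNP) and −0.038 (TIA).

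**Figure D4:**
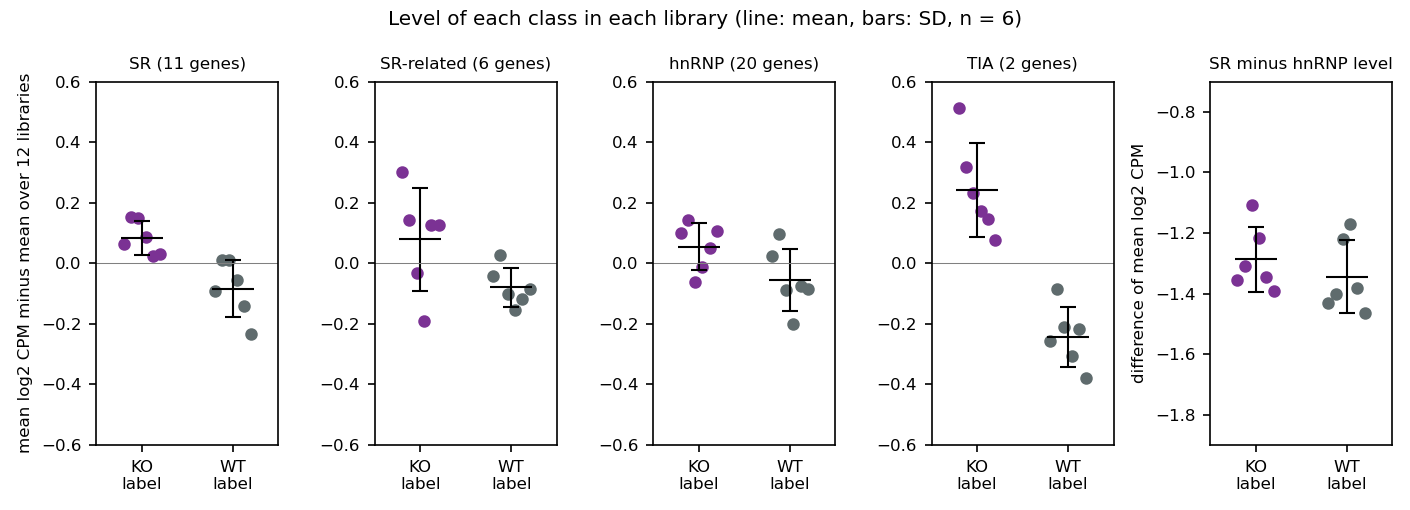
Mean log2 CPM of each class in each library, as its deviation from the mean over 12 libraries, and the SR minus hnRNP difference within a library, with a line for the mean and bars for the SD (n = 6 per label). On the TMM scale the labels are apart for the SR and TIA classes, whereas the SR minus hnRNP difference overlaps at −1.29 and −1.34. The first 4 panels move with the scaling. By library size alone the log2 fold change is negative for all 39 genes and for 13246 of the 13902 features tested.

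Paralogues within a family were compared by the log2 ratio of their levels in the same library, for 12 pairs and with two-sided exact permutation tests over the 12 libraries. The ratio of Tra2a to Tra2b was −0.0021 ± 0.206 in libraries labelled TAAR5-KO and −0.24 ± 0.118 in those labelled TAAR5-WT (SD, n = 6 each; exact p = 0.0325, adjusted over the 12 pairs p = 0.329). The ratio of Srsf10 to Srsf12 differed by 0.29 (exact p = 0.0671, adjusted p = 0.329), and that of Hnrnpl to Hnrnpll by −0.22 (exact p = 0.0823, adjusted p = 0.329). None of the 12 pairs passed the adjustment. The ratio of Tia1 to Tial1 differed by 0.052 (exact p = 0.652, adjusted p = 0.708).

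The exons of these genes are poor in G and C, with a median GC content of 43.3% against 48.4% for all features tested. Over all 13902 features, log2 fold change was lower at higher GC content (Spearman's rho −0.40 across genes), and rho was −0.94 over the 6 SR-related genes, −0.89 over the 20 hnRNP genes, −0.19 over the 11 SR genes and −0.65 over the 39 genes. These are descriptions across genes measured in the same libraries. The slope of log2 CPM on GC content, per 10 percentage points, ran from −0.219 to −0.0010 in libraries labelled TAAR5-KO and from −0.066 to 0.205 in those labelled TAAR5-WT, so it moved with the labels and overlapped.

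Set beside features of like GC content, the members lay above the median in each range of GC. From 40% to 42% GC, the 10 members had a median log2 fold change of 0.16 and the 1004 features one of 0.10. From 42% to 46% the values were 0.15 for 8 members and 0.047 for 2861 features, and at 50% GC or more −0.0064 for 8 members and −0.093 for 5821 features. The libraries' trends on GC content were then removed. The log2 fold change of Tia1 was then 0.36 (adjusted p = 0.0374 by the likelihood ratio test in edgeR) and that of Tra2a 0.42 (adjusted p = 0.0737), and both remained called. Srsf11, at 0.28 (adjusted p = 0.107), and Tial1, at 0.24 (adjusted p = 0.323), did not.

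**Figure D5:**
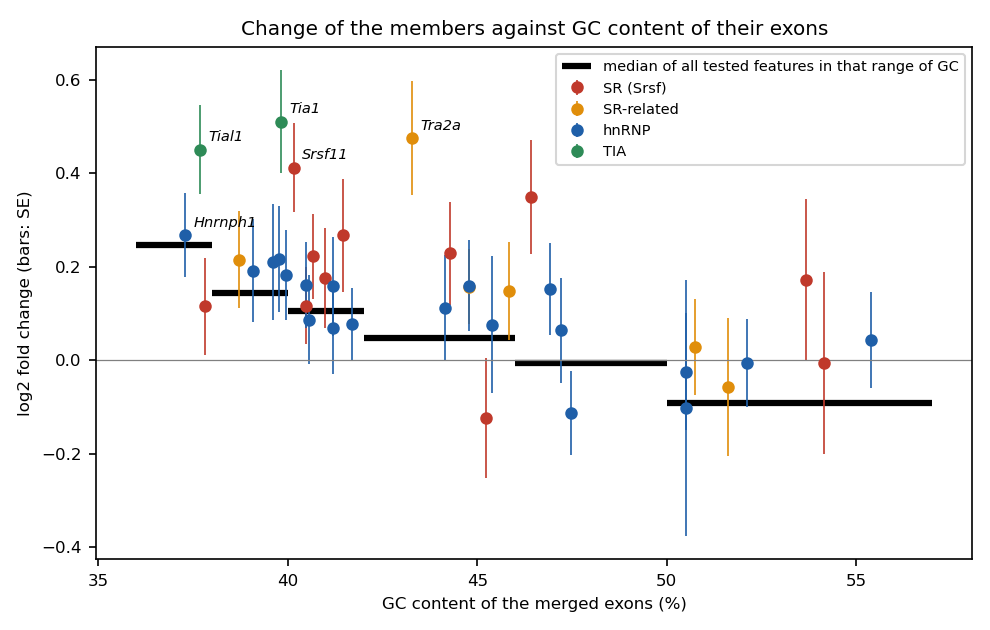
Log2 fold change of the 39 genes on the TMM scale against the GC content of their merged exons in percent, with bars for the standard error, and black lines for the median of all tested features in 6 ranges of GC content (the outer ranges are drawn only as far as the members reach). The hnRNP and SR-related genes run downwards with the black lines (rho −0.89, n = 20, and −0.94, n = 6). Tia1, Tial1, Srsf11 and Tra2a lie above the black lines, but all were picked for their rise in the same fit. By library size alone all points and lines would shift downwards, and 0 of 39 members would be above 0.

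After that removal, 31 of the 39 genes had a positive value, with a median of 0.072, which was 0.092 for SR genes, 0.12 for SR-related genes, 0.057 for hnRNP genes and 0.30 for the TIA pair. The 2 called genes of 39 make 5.13%, beside 0.36% of all features called higher in the same fit. Hnrnph1, the member with the lowest GC content at 37.3%, went from 0.27 to 0.059. Removal of the trend together with the quasi-likelihood test called 0 of 39, where Tia1 had the lowest adjusted p, 0.117 in edgeR. What gave rise to the GC trend was not tested.

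Several members share exon sequence with a neighbour or a copy, and how such reads were counted is not stated. The 4 called genes are little exposed. Srsf11 and Tra2a had no other transcript of at least 95% identity over 200 bases, Tia1 had 1 with 0 counts, and Tial1 had 1 with 7 counts beside 2900 of its own. By contrast, the values of Srsf2 (25.3% of exon bases shared with genes on the other strand), Srsf4 (43.0%), Hnrnpab (29.1%), Hnrnpf (26.5%) and Hnrnpm (14.7%, shared with Marchf2 on the same strand) are uncertain. Srsf9 shares sequence with transcripts of Gatc, which held 1716 counts beside 578 of its own, and Hnrnpa3 had 28 copies with 1.76% of its counts. Hnrnpa1 likewise shares sequence with Lztfl1, Hnrnpdl with Enoph1 and Hnrnpul2 with Ttc9c, where these held 1381, 1222 and 1391 counts.

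The count of a gene also pools all its annotated transcripts. The counts were made on the exons of GENCODE M35, whereas the shares given here are of the exons in M39. Of the 57132 features, 34873 had the same span in M39, so the shares need not hold for the exons that were counted. In GENCODE M39, exon bases that lie in no coding transcript made up 72.8% of Tra2a, 70.4% of Tia1, 58.4% of Srsf11 and 38.4% of Tial1. Members that were not called had shares as high, with 87.6% in Srsf9, 73.7% in Srsf4, 66.3% in Hnrnpll and 60.4% in Tra2b. The median was 26.3% over the 39 genes and 16.7% over 12597 tested protein-coding genes. Across genes, this share had a Spearman's rho of 0.36 with the log2 fold change in the 39 members and of 0.089 in the protein-coding genes, given as a description. Which transcripts the reads came from was not tested.

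Promoters are shown for the 4 genes that passed the test, since they passed in the same direction and only some of them share a motif. The 300 bases around the most upstream start in RefSeq (table on GRCm38.p6, placed in GRCm39 by an exact match) are printed 5′ to 3′ on the strand of the gene. Capitals mark TGACGT, the core of the cAMP response element, and CCGGAAG, a site of the ETS family, searched on both strands. They lie at chr3:157742194-157742493 (Srsf11, minus strand), chr6:49240937-49241236 (Tra2a, minus strand), chr6:86380951-86381250 (Tia1, plus strand) and chr7:128063348-128063647 (Tial1, minus strand).
Srsf11: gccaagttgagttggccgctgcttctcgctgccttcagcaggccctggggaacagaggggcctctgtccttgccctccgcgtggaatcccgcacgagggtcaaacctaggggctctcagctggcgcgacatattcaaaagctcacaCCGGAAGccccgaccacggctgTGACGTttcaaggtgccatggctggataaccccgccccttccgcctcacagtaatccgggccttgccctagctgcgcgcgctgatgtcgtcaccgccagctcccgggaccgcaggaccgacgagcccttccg
Tra2a: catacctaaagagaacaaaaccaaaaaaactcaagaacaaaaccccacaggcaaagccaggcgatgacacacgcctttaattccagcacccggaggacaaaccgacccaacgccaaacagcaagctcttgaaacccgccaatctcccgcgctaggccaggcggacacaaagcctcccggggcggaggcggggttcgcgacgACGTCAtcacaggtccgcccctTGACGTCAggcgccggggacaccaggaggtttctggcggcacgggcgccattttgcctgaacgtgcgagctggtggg
Tia1: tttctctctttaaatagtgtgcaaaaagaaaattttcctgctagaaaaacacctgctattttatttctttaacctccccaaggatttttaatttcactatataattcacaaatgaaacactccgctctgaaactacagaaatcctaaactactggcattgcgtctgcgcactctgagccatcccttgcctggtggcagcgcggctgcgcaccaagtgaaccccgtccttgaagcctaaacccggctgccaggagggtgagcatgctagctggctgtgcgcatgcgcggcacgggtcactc
Tial1: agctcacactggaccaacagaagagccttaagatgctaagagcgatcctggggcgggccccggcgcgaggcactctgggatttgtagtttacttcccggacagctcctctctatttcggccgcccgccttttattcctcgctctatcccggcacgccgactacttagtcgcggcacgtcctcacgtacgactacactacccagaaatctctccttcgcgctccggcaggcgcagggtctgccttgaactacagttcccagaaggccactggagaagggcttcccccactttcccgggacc

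Srsf11 held TGACGT once and CCGGAAG once. Tra2a held TGACGT at 3 positions counted over both strands, since its palindrome TGACGTCA counts on each, and Tia1 and Tial1 held neither motif. A promoter was listed for 37 of the 39 genes, and 12 of these (32.4%) held TGACGT, beside 7.59% of 27025 promoters and 11.9% of the 10239 promoters of tested genes. These were Srsf3, Srsf6, Srsf11, Tra2a, Tra2b, Srrm4, Son, Hnrnpa2b1, Hnrnpa3, Hnrnph1, Hnrnph2 and Hnrnpm. CCGGAAG was found in 6 (16.2%, against 17.3% of tested genes) and CCAAT in 19 (51.4%, against 38.6%). The GC box GGGCGG was found in 27 (73.0%, against 64.8%) and TATAAA in 4 (10.8%, against 6.84%). The members' promoters had a median GC content of 64.3%, and all promoters 52.7%. None of these 5 motifs contains another. A match of letters is a description of the window and not a site of binding.

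Kinases and partners of SR proteins were read from a list of 32 genes, of which 31 were tested and 27 had a positive log2 fold change on the TMM scale (3 by library size alone), with a median of 0.18. The likelihood ratio test called 4 (12.9%, beside 0.957% of all features), all higher, and 0 lower. Like the members, this list was drawn up with earlier results of these data known, so its share is a description. Its median SE was 0.11, beside 0.17 for all features. Clk1 encodes a kinase that phosphorylates SR proteins in the nucleus. It ran from 12.5 to 17.4 CPM (median 15.5) in libraries labelled TAAR5-KO and from 8.95 to 12.4 CPM (median 10.3) in those labelled TAAR5-WT. The labels did not overlap, and the log2 fold change was 0.56 with an SE of 0.11 (adjusted p = 0.000349 by the likelihood ratio test, and 0.0302 by the quasi-likelihood test in edgeR). Clk1 also remained called after the removal of the GC trend (adjusted p = 0.0102).

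The kinase gene Clk4 had a log2 fold change of 0.47 (SE 0.11) and Pnisr, whose protein carries a serine and arginine rich region, one of 0.40 (SE 0.099), again with no overlap between the labels. After the removal of the GC trend, neither remained called (adjusted p = 0.107 for Clk4 and 0.267 for Pnisr by the likelihood ratio test in edgeR). Clk1, Clk4 and Pnisr were the 3 of 31 tested genes of this list whose labels did not overlap, beside 0.626% of all features. Ccnl2, a cyclin of nuclear speckles, had 0.46 (SE 0.14) with overlapping ranges. Its call was made by the likelihood ratio test (adjusted p = 0.0799) and was lost in the quasi-likelihood test of edgeR (0.194), in DESeq2 (0.141) and with the GC trend removed (0.117). The next smallest p-values were those of Nktr (0.30), Arglu1 (0.41) and Srek1 (0.39), none of them called. The SR protein kinase genes of the cytoplasm, Srpk1 and Srpk2, had 0.16 and 0.089, the import receptor Tnpo3 had 0.066, and Srpk3 was left untested, with at most 15 counts in a library.

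The other list held 18 hnRNP proteins with other symbols and their relatives, such as the Ptbp and Pcbp genes. On the TMM scale, 9 had a positive and 9 a negative log2 fold change (0 and 18 by library size alone), with a median of 0.0099. The likelihood ratio and quasi-likelihood tests in edgeR called 0 of 18. At an unadjusted p under 0.05 by the likelihood ratio test, 1 was higher and 1 lower. Matr3, a nuclear matrix protein that binds RNA, had 0.20 with an SE of 0.081 (adjusted p = 0.247 in edgeR and 0.0938 in DESeq2, which called it). Pcbp4 and Pcbp3, which bind runs of C, had −0.32 (SE 0.15) and −0.23 (SE 0.12).

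RNAs that stay in the nucleus moved with the labels as well. The summed level of 8 such RNAs (Malat1, Neat1, Meg3, Miat, Kcnq1ot1, Rian, Mirg and Snhg11) ran from 1175 to 1711 CPM in libraries labelled TAAR5-KO and from 778 to 1095 CPM in those labelled TAAR5-WT. The labels did not overlap, and all 8 had a positive log2 fold change on the TMM scale (5 by library size alone). The likelihood ratio test called 5 of the 8 higher, beside 0.957% of all features. With the GC trend removed, all 8 remained positive and 5 were called, beside 0.36% of all features called higher. The part of these 8 RNAs in the members' values was not tested.

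Marker lists of cell types were read as summed levels, and no marker in any of them was at 0 counts over the 12 libraries. The 8 spiny neuron markers, which define the main cell type of the striatum, summed to 321 to 416 CPM and 187 to 358 CPM, with 4 libraries labelled TAAR5-KO above all those labelled TAAR5-WT. All 8 had a positive log2 fold change on the TMM scale (0 by library size alone), and 0 of 8 were called. On both scales, 0 of the 5 microglia, 0 of the 7 astrocyte and 0 of the 6 mature oligodendrocyte markers had a positive value. The 5 microglia markers summed to 23.4 to 34.4 CPM and 31.1 to 40.0 CPM, with 5 of 6 libraries labelled TAAR5-KO below all those labelled TAAR5-WT. Of these 5 markers, 2 were called lower, beside 0.691% of all features. The 7 astrocyte markers summed to 976 to 1191 CPM and 1085 to 1278 CPM (1 called lower). The 6 mature oligodendrocyte markers summed to 572 to 700 CPM and 609 to 780 CPM (0 called). Their part in the members' values was not tested.

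Markers of tissue next to the striatum varied between libraries. The 6 cortical pyramidal neuron markers summed to 30.0 to 109 CPM in libraries labelled TAAR5-KO and 38.6 to 116 CPM in those labelled TAAR5-WT, and these ranges overlapped. The 5 choroid plexus markers summed to 1.38 to 458 CPM (median 4.98) in libraries labelled TAAR5-KO and to 2.35 to 279 CPM (median 173) in those labelled TAAR5-WT. Their ranges overlapped, while the medians were far apart and 0 of the 5 had a positive log2 fold change on either scale. The ranges overlapped as well for the sums of the 4 endothelium markers, 3.57 to 5.39 CPM and 3.28 to 4.43 CPM. None of the markers of these 3 lists was called. Their part in the members' values was not tested.

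After the mean of each label was taken off, the members were compared with each other over the 12 libraries. The mean Pearson's r over pairs of genes was 0.14 within the SR class, 0.47 within the SR-related class, 0.16 within the hnRNP class, 0.063 between SR and hnRNP genes and 0.0010 over pairs of all features. These values share libraries, depth and base composition and are given as a description. The members closest to the mean of the other members were Hnrnpa3 (r = 0.90), Hnrnpul2 (0.82) and Son (0.82). Tia1 had 0.55, Tial1 0.46, Tra2a 0.61 and Srsf11 0.18, while Hnrnpl was at −0.50.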

How the data were processed

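RNA of the striatum of 6 TAAR5-KO and 6 TAAR5-WT mice was sequenced. The authors deposited raw whole-number counts per gene, made with cutadapt 4.1, STAR 2.7.11b on GRCm39 with GENCODE M35 and featureCounts 2.0.6 according to their methods and processing notes. Strand setting and treatment of multi-mapping reads are not given in the sources used here. The table holds 12 more columns of counts that were left out. Columns were taken as replicates of their label.

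Features that reached 0.5 CPM in 3 or more libraries were scaled by TMM and compared with glmLRT in edgeR 4.0.16 (R 4.3.3) with Benjamini–Hochberg adjustment over all features and a threshold of 0.1. Filter, test and threshold are those that the study's methods state, and its text does not name TMM. The outcome differed. The study reported fewer features after its filter and fewer called genes, more of them lower than higher in TAAR5-KO mice. Here 13902 features were tested, with 133 called higher and 96 called lower. What made this difference was not tested. The quasi-likelihood test, DESeq2 1.42.0, other scalings and filters, trends on GC content or length removed through offsets (loess, span 0.5) and each library left out were alternatives. Log2 CPM had a prior count of 2. Paralogue ratios used exact permutation tests (scipy 1.17.1).

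GC content came from the merged exons on GRCm39, whose length equals the deposited length for all 57132 features. Transcript classes came from GENCODE M39, promoters from RefSeq (37 of 39 members matched by symbol), and copies from BLAST 2.17.0.

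The members, lists and rules were chosen with earlier results of these data known. Values are given for members called by any test, for the 3 highest levels and the highest and lowest change of each class, and for Son and Srrm2, which the main text of the study names. Tra2b, Srpk1, Srpk2 and Tnpo3 were added after their values were seen. The fits were tested on simulated data, where the likelihood ratio test made more false calls than its threshold allows and the quasi-likelihood test came close to it, so calls of the likelihood ratio test alone are less firm.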

Additional observations from a re-analysis of the deposited data

Results flagged for a closer look

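Of 80 groups of 6 libraries looked at (each of the 39 genes and the SR minus hnRNP difference in each label), 4 held a library whose gap to the nearest other library was large against the range of the group by Dixon's critical value. That is 5%, and chance flags about 1 in 20. Tial1 was 16.4 CPM in NK1, labelled TAAR5-KO, where the next library had 13.7 CPM, and the gene was called without NK1 as well. Srsf1 was 21.9 CPM in NK2, labelled TAAR5-KO, where the next had 20.4 CPM. Hnrnpu was 63.4 CPM in NK8, labelled TAAR5-WT, where the next had 56.8 CPM. Srsf9 was lowest in NK10, labelled TAAR5-WT, at 1.20 CPM from 10 counts, where the next had 2.09 CPM.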

How the results depend on the processing

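Without each library in turn, 3 to 6 members, 3 to 6 partner genes and 0 hnRNP relatives were called. Tra2a was lost without NK11, Hnrnph1 was gained without NK3 and without NK8, Srsf2 without NK6 and Srsf5 without NK8. Tia1, Tial1 and Srsf11 kept their calls in all 12. Other tests gave 3 members called (quasi-likelihood), 5 (DESeq2), 4 (RLE size factors, filterByExpr, the CPM filter on TMM library sizes, an adjusted p under 0.05, or the length trend removed) and 3 (no filter). The members called were 0 with library size as the only scaling and 2 with the GC trend removed. Chosen after the data were seen were removal of ribosomal RNA features (4 called), the ribosomal RNA share as a covariate (4 called) and the GC trend removed in the quasi-likelihood test (0 called). The partner genes called were 0 with library size alone, 2 with no filter, and 1 with the GC trend removed in either test, and DESeq2 called 1 hnRNP relative. The cause was not tested.

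By library size alone the class medians were −0.28 (SR), −0.33 (SR-related), −0.37 (hnRNP), −0.038 (TIA) and −0.35 (all members). With the GC trend removed they were 0.092 (SR), 0.30 (TIA) and 0.072 (all members), and with the quasi-likelihood test as well 0.091, 0.30 and 0.072. Without each library in turn, the SR minus hnRNP difference ran from 0.022 to 0.092. The members whose log2 fold change crossed 0 without some library were Srsf4 (−0.081 to 0.059), Srrm4 (−0.12 to 0.024), Srrm2 (−0.0023 to 0.089), Hnrnpf (−0.25 to 0.044), Hnrnpl (−0.041 to 0.047), Hnrnpab (−0.059 to 0.036), Hnrnpa0 (−0.0026 to 0.080) and Hnrnpul2 (−0.0061 to 0.12). The ratios Srsf1/Srsf9 (−0.20 to 0.083) and Srsf3/Srsf7 (−0.10 to 0.0097) did so too.

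Signs turned in other settings as follows. By library size alone the log2 fold changes were Srsf6 −0.26, Srsf11 −0.037, Srsf10 −0.40, Srsf9 −0.36, Srsf1 −0.36, Srsf2 −0.099, Srsf5 −0.15, Srsf3 −0.28, Srsf7 −0.25, Srrm1 −0.30, Tra2a −0.0075, Tra2b −0.29, Son −0.35, Srrm2 −0.47, Hnrnpu −0.34, Hnrnpa3 −0.32, Hnrnpr −0.30, Hnrnpd −0.41, Hnrnpdl −0.28, Hnrnpa2b1 −0.24, Hnrnph3 −0.34, Hnrnph1 −0.21, Hnrnpa0 −0.49, Hnrnpk −0.40, Hnrnpc −0.37, Hnrnpa1 −0.39, Hnrnpm −0.30, Hnrnpll −0.36, Hnrnpul2 −0.49, Hnrnph2 −0.35, Tia1 −0.0052 and Tial1 −0.071. With the GC trend removed they were Srsf4 0.090, Srsf10 −0.093, Srsf1 −0.010, Srrm4 0.021, Hnrnpd −0.031, Hnrnpl 0.074, Hnrnpab 0.029, Hnrnpk −0.014 and Hnrnpc −0.029, and the ratios Hnrnpa1/Hnrnpa2b1 0.029 and Hnrnpl/Hnrnpll 0.028. With the GC trend removed in the quasi-likelihood test they were Srsf4 0.081, Srsf10 −0.083, Srsf1 −0.0099, Srrm4 0.019, Hnrnpd −0.031, Hnrnpl 0.077, Hnrnpab 0.035, Hnrnpk −0.012 and Hnrnpc −0.031. With the length trend removed they were Srsf4 0.0053 and Hnrnpl 0.011. With the ribosomal RNA share as a covariate they were Hnrnpf 0.24, Hnrnpl 0.032, Hnrnpab 0.093 and Hnrnpa0 −0.020. None of these values was called, and the cause was not tested.

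No paired analysis was possible because the columns carry no animal number. The depth outside ribosomal RNA limits Hnrnpf, Srsf9 and Srsf4 most, with 3, 10 and 11 counts in their shallowest library, so that changes of these genes were not detectable at this depth unless large. The limit of 3 counts behind a count of 0 covers counting error only.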

Other observations

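Over the 12 libraries, with the mean of each label taken off, the pairs of members with the highest Pearson's r were Srrm1 with Hnrnpdl (0.92), Hnrnpdl with Hnrnpa2b1 (0.88), Hnrnpa3 with Hnrnpul2 (0.87) and Hnrnpu with Hnrnpul2 (0.87). The lowest were Hnrnpd with Hnrnpl (−0.83), Srsf12 with Hnrnpul1 (−0.78) and Tra2a with Hnrnpl (−0.77). These pairs were picked from all pairs of members for their values and are given as a description, with no test.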
